A study of Mus musculus with 3 samples.

Results

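The transcripts described here belong to 55 genes of the NRF2, glutathione and thioredoxin systems, out of 24421 gene lines counted in SB28, a mouse glioblastoma model cell line. The genes were listed by name according to function, and were chosen partly on measured values, since some were already known to be highest in the library labelled replicate 3. The data are RNA-seq counts from 3 libraries of 1 group, all of C57BL/6 background and with brain given as the source. The labels name no treatment, control group, passage, culture condition or clone, and nothing in them says that the libraries came from separate cultures, so the spread given below is between these samples and may be technical. Values are CPM, each library's counts scaled to a total of 1000000 on genes, listed in the order of replicates 1, 2 and 3, or as mean ± SD (n = 3).

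NRF2, encoded by Nfe2l2, is a transcription factor that the adaptor KEAP1 marks for destruction in unstressed cells. Oxidants and electrophiles that modify KEAP1 let NRF2 accumulate, pair with a small MAF protein and bind antioxidant response elements near genes for quinone reduction, glutathione synthesis, thioredoxin reduction and NADPH supply. Glutathione and thioredoxin pass electrons from NADPH to peroxidases and to oxidised proteins, and in gliomas these systems are studied for their part in resistance to radiation and alkylating drugs.

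Replicates 1, 2 and 3 held 36019009, 28990128 and 32632858 counts on genes. Replicate 3 stood apart. The median absolute log2 ratio over detected genes was 0.23 between it and either of the others, against 0.05 between replicates 1 and 2. The latter still differed by more than counting noise, with a mean chi-square of 2.23 per gene over 12746 genes, which does not show whether they came from separate cultures. They are counted as 2 samples, as labelled. Reads outside any annotated gene made up 5.19%, 5.27% and 6.54% of the recorded reads, and their part in the differences below was not tested. The line's glioma markers were present (4 of 4 detected, with Vim highest), and of 22 markers of astrocytes and oligodendrocytes, leukocytes, erythroid cells, endothelium and neurons, 1 was detected (Kdr, at 1.11, 1.07 and 2.64 CPM). The 5 erythroid markers, from a lineage rich in peroxiredoxin and catalase, summed to 0, 0.0345 and 0 CPM, the 5 leukocyte markers to 0.361, 0.173 and 0.398, the 4 neuronal markers to 1.69, 1.38 and 0.245, and the 4 endothelial markers to 2.36, 2.14 and 3.37. The part of these low signals in the results was not tested. Gfap, Aqp4, Olig2, Aif1 and Cd3e had 0 counts.

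Most of the redox genes were expressed, many of them at high levels. Of the 55 members, 49 (89.1%) reached 1 CPM in every library, against 46.6% of all gene lines. Their median level, as log2(CPM per kb of exon + 1), was 4.92 ± 0.13 over all 55 members, against 3.09 ± 0.01 over 11318 detected genes with a known length and 0.28 ± 0.01 over all 24019 genes with one. Together the members held 0.900%, 0.891% and 1.05% of the counts on genes. The 6 members below 1 CPM in every library were the secreted peroxidase Gpx3 and the glutathione transferases Gsta1, Gsta2, Gsta3, Gstt1 and Gstt2.

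**Figure D1:**
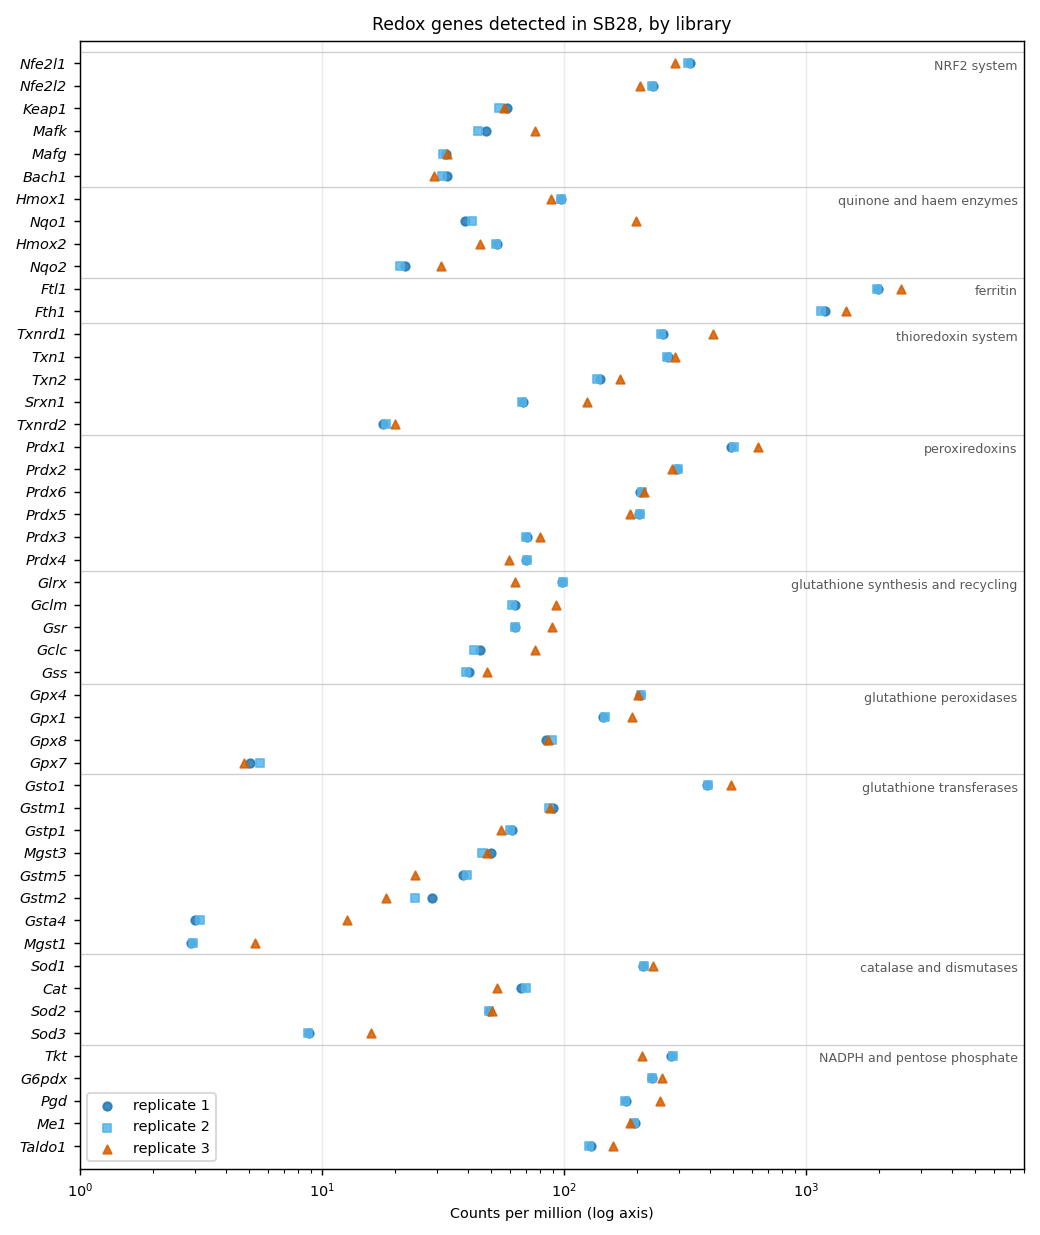
CPM on a log axis for the 49 detected members, grouped by role, with 1 point for each of the 3 libraries. Ftl1 and Fth1 lie above 1000 CPM in each library, and the points of replicates 1 and 2 nearly coincide while replicate 3 lies to the right for genes such as Nqo1, Gsta4, Srxn1 and Txnrd1.

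The regulators of the pathway were all detected, and transcripts of the activator stood above those of its restraints. Transcript levels do not give the amount of NRF2 protein or its activity, which were not measured here. Nfe2l2, on chromosome 2 at 75675513 to 75704641 (GRCm38), stood at 233.5, 231.9 and 207.2 CPM, lowest in replicate 3. Its adaptor Keap1, on chromosome 9 at 21229730 to 21239361, stood at 58.2, 54.1 and 56.5 CPM. Of the Keap1 exon bases, 10.9% lie under a gene on the opposite strand. Bach1, a repressor that competes for the same DNA elements, reached 33.0, 31.4 and 29.0 CPM. Per base of exon, Nfe2l2 lay 4.92-fold above Keap1 (range over libraries 4.53 to 5.30) and 11.7-fold above Bach1 (11.5 to 12.04), both larger than the spread between replicates. A ratio counts here as larger than the spread if its log2 value had the same sign in each of the 3 libraries and a mean beyond 2 SD.

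Nfe2l1 encodes NRF1, a related factor that governs proteasome genes. It stood at 332.5, 326.8 and 287.5 CPM, and per base the ratio of Nfe2l2 to it was within the spread (1.02-fold, 1.01 to 1.03). The ratio was called without replicate 1 (log2 0.04) and, at 1.34-fold, with the longest transcript as the length, and it turned to 0.711-fold without length. Of the small MAF partners, Mafg was level across libraries (32.7, 31.7 and 32.9 CPM), whereas Mafk stood at 47.9, 44.4 and 75.7 CPM and was clearly highest in replicate 3. Mafk lay 2.41-fold above Mafg per base (2.015 to 3.31), larger than the spread, but the call was lost without length (1.68-fold).

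Among the detected members, Nqo1 had the highest ratio between libraries. Nqo1 encodes the quinone reductase NQO1 and lies on chromosome 8 at 107388225 to 107403206. It stood at 39.0, 41.6 and 199.5 CPM (1406, 1207 and 6511 counts), so its highest value was 5.11 times its lowest. Its relative Nqo2 stood at 22.02, 20.9 and 31.2 CPM, a ratio of 1.49. Nqo1 exceeded Nqo2 per base in each library, by 4.61-fold in the lowest and 16.7-fold in the highest, with a mean of 7.35-fold that was larger than the spread. Its log2 mean was 2.88 as reported and 2.29 without replicate 3. Without length correction the mean was 2.83-fold and the call was lost.

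Haem oxygenase 1, Hmox1, which breaks down haem and is induced by NRF2 once BACH1 leaves its enhancers, did not share the pattern of Nqo1. It stood at 97.8, 96.9 and 88.4 CPM, with the lowest value in replicate 3. The constitutive form Hmox2 stood at 53.0, 52.5 and 45.1 CPM, also lowest there. Hmox1 lay 2.38-fold above Hmox2 per base (2.33 to 2.48), larger than the spread, although 40.2% of the exon bases of Hmox2 lie under a gene on the opposite strand.

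The ferritin chains, which store the iron that haem breakdown frees, were the most abundant members. The light chain Ftl1 reached 1993, 1961 and 2461 CPM and the heavy chain Fth1, which oxidises the iron, 1203, 1150 and 1466 CPM. Both were highest in replicate 3, at ratios of 1.26 and 1.27. Ftl1 lay 4.35-fold above Fth1 per base (4.29 to 4.41), and its share of the family differed little between libraries, at 81.3% ± 0.22. Both values depend on the lengths used. With the longest transcript the ratio was 3.58-fold and the share 78.15%, and without length the ratio was 1.68-fold. Of the distinct 50-base stretches in Ftl1 transcripts, 48.2% also occur in transcripts of other genes, chiefly its pseudogenes. A counter that drops reads with more than 1 placement undercounts such a gene, and 9.58% of recorded reads in replicate 3 were set aside for that reason, against 8.93% and 8.86% in replicates 1 and 2.

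In the thioredoxin system, all 5 members were highest in replicate 3, by differing amounts, against 46.0% of all detected genes. Since replicate 3 helped to choose the members, nothing is read from this count. Txn1 and Txnrd2, at ratios of 1.09 and 1.11, lay below the median of 1.205 over all detected genes. Cytosolic thioredoxin, Txn1, stood at 268.6, 266.1 and 289.0 CPM and mitochondrial Txn2 at 141.5, 136.4 and 170.6 CPM. The selenoenzyme that reduces cytosolic thioredoxin, Txnrd1 (chromosome 10 at 82833951 to 82897712), stood at 257.5, 252.2 and 413.8 CPM. Sulfiredoxin, Srxn1, which restores over-oxidised peroxiredoxins, stood at 67.5, 67.0 and 124.2 CPM, a ratio of 1.85 with the highest value in replicate 3. Txnrd2, the mitochondrial reductase, stood at 17.9, 18.5 and 19.98 CPM. Txnrd1 lay 9.90-fold above Txnrd2 per base (8.46 to 12.9) and Txn1 7.38-fold above Txn2 (6.78 to 7.81), both larger than the spread. With the longest transcript as length the second ratio was 3.60-fold.

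All 6 peroxiredoxins, thiol peroxidases of which most are recharged by thioredoxin, were detected. None reached a ratio of 1.5, against 16.6% of all detected genes that did, and nothing is read from so small a family. Prdx1 led them at 489.0, 503.0 and 632.2 CPM, followed by its cytosolic relative Prdx2 at 292.9, 296.7 and 279.5 CPM. Per base, Prdx1 made up 33.8%, 34.2% and 40.4% of the family, Prdx2 20.2%, 20.1% and 17.8%, and Prdx5 20.1%, 19.9% and 17.1%. The share of Prdx1 was largest in replicate 3, and those of Prdx2 and Prdx5 were smallest there. Prdx6, the glutathione-dependent form, was nearly level (205.9, 211.1 and 214.5 CPM). The mitochondrial Prdx3 stood at 70.5, 69.5 and 79.4 CPM, the secretory-pathway form Prdx4 at 70.0, 70.5 and 59.4 CPM, and Prdx5 at 204.8, 206.0 and 187.6 CPM. Prdx1 exceeded Prdx2 by 1.86-fold (1.67 to 2.27) and Prdx6 by 4.03-fold (3.75 to 4.65), and Prdx5 exceeded Prdx3 by 1.89-fold (1.63 to 2.05), all larger than the spread. The call for Prdx1 over Prdx2 was lost with the longest transcript (1.31-fold).

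Glutathione synthesis was expressed in each library, with its rate-limiting ligase highest in replicate 3. Gclc, the catalytic subunit of glutamate-cysteine ligase, stood at 44.9, 42.5 and 76.0 CPM, and the modifier subunit Gclm at 63.0, 61.1 and 93.2 CPM. Gss, which adds glycine in the next step, stood at 40.4, 39.6 and 47.9 CPM. Gsr, which returns oxidised glutathione to its reduced form, stood at 62.7, 62.6 and 89.6 CPM. Glutaredoxin, Glrx, went the other way, at 98.3, 98.9 and 63.1 CPM. Gclc lay 1.24-fold above Gclm per base (1.16 to 1.36), larger than the spread, but 0.739-fold of it without length, since the Gclm exons span 6291 bases and those of Gclc 3766. Txnrd1 exceeded Gsr by 1.65-fold per base (1.57 to 1.80), and by 3.13-fold with the longest transcript.

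The glutathione peroxidases were carried by 3 of 5 members. Gpx4, which reduces lipid peroxides in membranes and holds ferroptosis in check, was steady at 205.8, 208.8 and 202.9 CPM. Gpx1, the general cytosolic form, stood at 145.6, 148.0 and 190.5 CPM, and Gpx8, of the endoplasmic reticulum, at 84.3, 89.3 and 86.2 CPM. Per base, Gpx4 lay above Gpx1 in replicates 1 and 2 and below it in replicate 3, so that the ratio was within the spread (1.075-fold, 0.891 to 1.18). It was called without replicate 3 (log2 0.24) and with the longest transcript (1.385-fold), and 34.7% of the 50-base stretches of Gpx4 recur in other genes. Gpx8 lay 20.8-fold above Gpx7 (19.7 to 22.3), a close relative that stood at 5.05, 5.55 and 4.75 CPM. Plasma-type Gpx3 had 6, 2 and 3 counts.

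The glutathione transferases, which couple glutathione to electrophiles, were the most uneven of the roles: 8 of 13 were detected, against 46.6% of all gene lines. Gsto1, of the omega class, made up 49.4%, 50.7% and 57.2% of the family per base and stood at 389.8, 393.4 and 490.7 CPM. Gstm1 (90.3, 86.6 and 87.4 CPM), Gstp1 (61.1, 59.7 and 54.8 CPM) and the microsomal Mgst3 (50.03, 45.9 and 47.9 CPM) followed. None of these reached a ratio of 1.5, against 16.6% of all detected genes that did. Mgst3 lay 24.6-fold above Mgst1 per base (16.5 to 31.7), and 14.3-fold with the longest transcript. Gstm1 lay 1.58-fold above Gstp1 (1.52 to 1.68), but the direction turned with the longest transcript (0.959-fold), and 18.9% and 33.7% of their 50-base stretches recur in other genes.

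**Figure D2:**
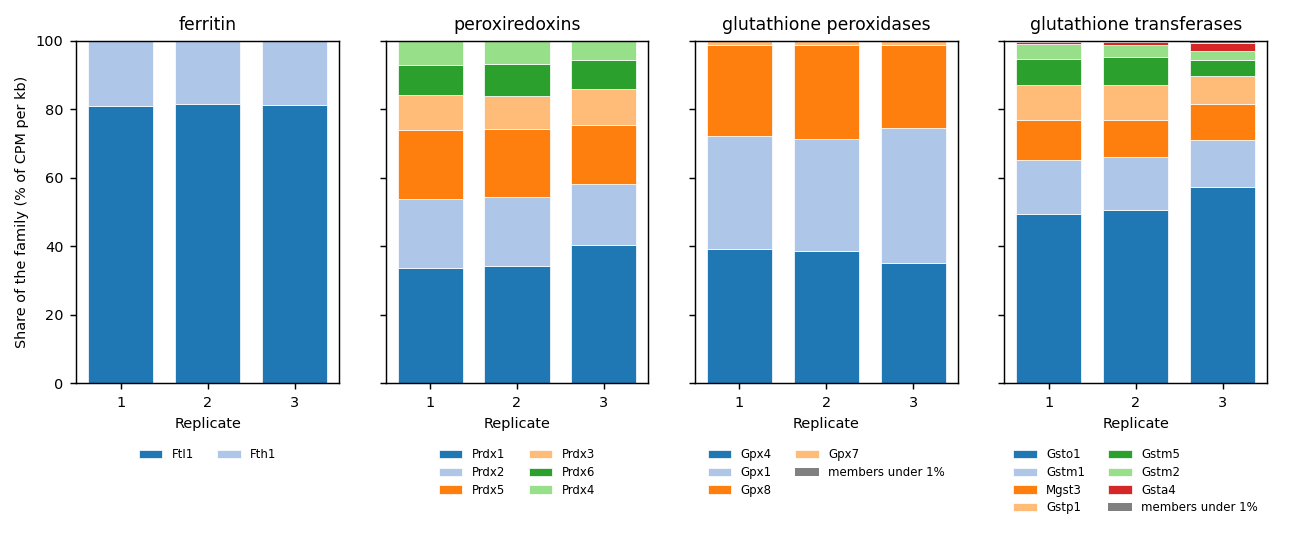
Share of each gene in its family, in percent of summed CPM per kb of exon, as 1 stacked bar for each of the 3 libraries, with genes averaging under 1% pooled. Ftl1 holds about 81% of ferritin in each library, while the shares of Prdx1, Gpx1 and Gsto1 are largest in replicate 3.

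Some low transferases were highest in replicate 3 and others lowest there. Gsta4, an alpha-class enzyme for the lipid peroxide product 4-hydroxynonenal, stood at 2.998, 3.14 and 12.7 CPM (108, 91 and 415 counts), a ratio of 4.24. Its relatives on chromosome 9 had counts in replicate 3 alone: Gsta1 had 0, 0 and 12 counts and Gsta2 had 0, 0 and 4. A count of 0 allows up to 0.0833 CPM in replicate 1 and 0.103 CPM in replicate 2, against 0.368 CPM for Gsta1 and 0.123 CPM for Gsta2 in replicate 3. These limits cover counting error only. Of the 50-base stretches of Gsta1 and Gsta2, 90.5% and 49.8% recur in other genes, so these levels are uncertain. Mgst1 was low and highest in replicate 3 (2.89, 2.93 and 5.30 CPM). Gstm2 (28.4, 24.4 and 18.4 CPM) and Gstm5 (38.2, 39.8 and 24.4 CPM), of the mu class, were lowest there, unlike the more abundant Gstm1 of that class. Gsta3 had 0, 1 and 0 counts, Gstt1 had 9, 7 and 2, and Gstt2 had 18, 10 and 4.

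Of the enzymes that remove superoxide and hydrogen peroxide without thiol cofactors, Sod1 and Sod2 were nearly level, while Sod3 and Cat were not. Copper-zinc superoxide dismutase, Sod1, stood at 212.6, 214.7 and 232.9 CPM and its mitochondrial manganese counterpart Sod2 at 49.0, 48.8 and 50.7 CPM. Sod1 lay 11.2-fold above Sod2 per base (10.9 to 11.6), and 6.56-fold with the longest transcript, both larger than the spread, although 21% of the 50-base stretches of Sod2 recur in other genes. The extracellular form Sod3 was low but highest in replicate 3, at 8.83, 8.73 and 16 CPM. Catalase, Cat, the peroxisomal enzyme, stood at 66.7, 69.6 and 53.0 CPM and lay below Gpx1 per base in each library, by 4.63-fold on average (3.85 to 6.51).

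The NADPH makers and other enzymes of the pentose phosphate pathway were abundant. None of the 5 members reached a ratio of 1.5, which 16.6% of all detected genes did, and nothing is read from so few genes. G6pdx, the entry enzyme of the pentose phosphate pathway, stood at 231.0, 231.2 and 255.3 CPM, and Pgd, the next NADPH-forming step, at 180.0, 179.3 and 249.1 CPM. G6pdx lay 2.50-fold above Pgd per base (2.15 to 2.70). This was 1.64-fold with the longest transcript, and 1.19-fold and not called without length. Malic enzyme 1, Me1, was steady at 196.6, 195.7 and 187.7 CPM and lay 1.54-fold below G6pdx (1.47 to 1.70). Of its 50-base stretches, 28.3% recur in other genes, which can lower its count. The non-oxidative enzymes diverged, with Tkt at 278.1, 282.3 and 209.7 CPM and Taldo1 at 130, 126.4 and 159.0 CPM. Taldo1 exceeded Tkt by 1.83-fold per base (1.52 to 2.57), but Tkt was the higher by 1.85-fold without length. This call was also lost without replicate 1 and with the longest transcript.

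**Figure D3:**
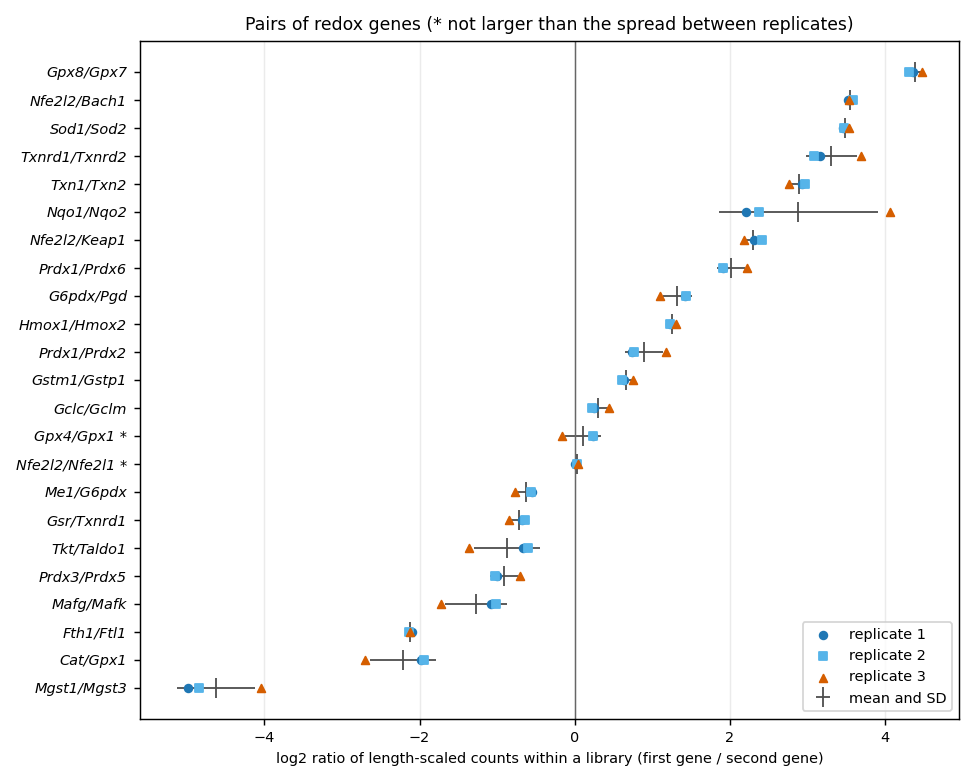
Log2 ratio of length-scaled counts for 23 gene pairs, with 1 point for each of the 3 libraries and the mean and SD. Most pairs lie on the same side of 0 in all 3 libraries, and the widest spread belongs to Nqo1 against Nqo2, where replicate 3 lies far to the right.

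In all, 21 of the 23 pairs differed by more than the spread between replicates. The same count was not made over pairs of other genes, so nothing particular to redox genes is read from it. By exact permutation of the signs (two-sided), p was 0.25 for 22 pairs, the smallest value that 3 libraries allow, and 0.5 for Gpx4 against Gpx1. After Benjamini-Hochberg adjustment over the 23 pairs these were 0.261 and 0.5, so no pair could reach the usual threshold.

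The highest library was under 1.2 times the lowest for 24 detected members and between 1.2 and 1.5 times for 13. These counts were not made over all detected genes, and nothing is read from them beyond the median ratios given below. Of the 49 detected members, 28 (57.1%) were highest in replicate 3, against 46.0% of all detected genes. Among them, 12 (24.5%) had a highest library at least 1.5 times the lowest, against 16.6% of detected genes. Of these, 9 (18.4%) were highest in replicate 3 (Nqo1, Gsta4, Srxn1, Mgst1, Sod3, Gclc, Mafk, Txnrd1 and Gclm), against 6.72% of detected genes, and 3 (6.12%; Gstm5, Glrx and Gstm2) were lowest there, against 9.76%. Since replicate 3 helped to choose the members, nothing is read from these shares, and no test was made. Just under the limit lay Nqo2 (1.49), Gsr (1.43) and Pgd (1.39), and just over it Gclm (1.53), Gstm2 (1.54) and Glrx (1.57). The median ratio was 1.21 over detected members and 1.205 over all detected genes. Without replicate 3, 0 members reached 1.5, against 0.193% of all detected genes, so this is no trait of the members. Their largest ratio between replicates 1 and 2 was 1.17 (Gstm2). Counting error was small beside these differences, with a median of 2.86% at the lowest count of the 12 genes.

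**Figure D4:**
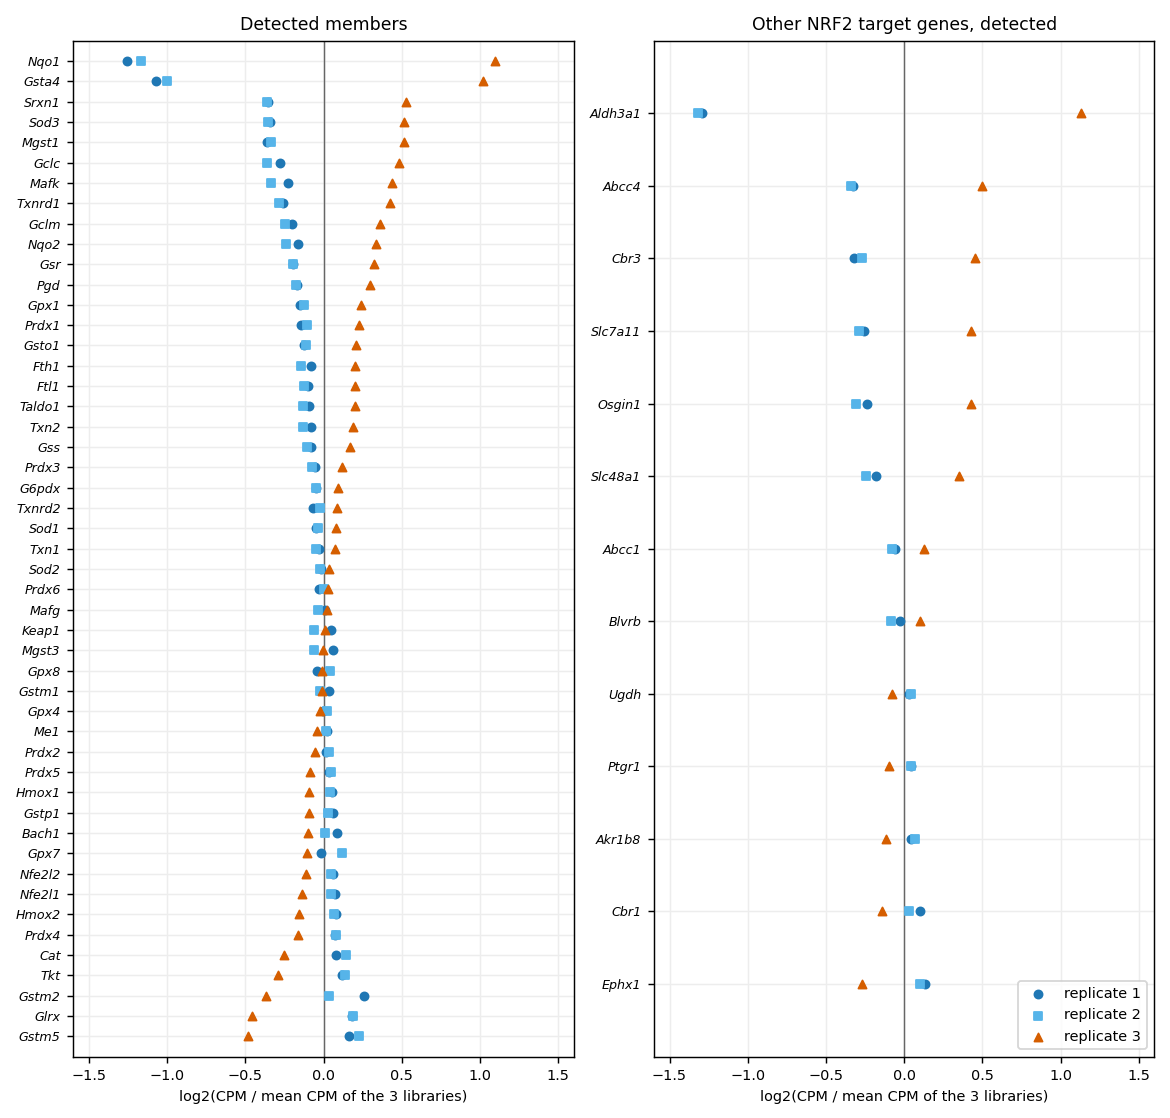
Log2 ratio of each library to the mean of the 3 libraries, for the 49 detected members on the left and for 13 detected genes from a list of other NRF2 targets on the right, sorted by replicate 3. Nqo1, Gsta4 and Aldh3a1 lie farthest to the right in replicate 3, while Hmox1, Nfe2l2 and Ephx1 lie to the left of 0 there.

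Other genes often listed as NRF2 targets also included some that were highest in replicate 3 and some that were not. The 14 genes of that list are not members; it was written with earlier results of these data known. In all, 13 were detected, and 8 of them (61.5%) were highest in replicate 3, against 46.0% of detected genes. A ratio of at least 1.5 was reached by 6 (46.2%), each highest in replicate 3, against 6.72% of detected genes that met both conditions. Nothing is read from these shares either. Aldh3a1, an aldehyde dehydrogenase that the aryl hydrocarbon receptor also induces, stood at 16.3, 16.04 and 87.5 CPM. The others were the cystine importer subunit Slc7a11 (46.5, 45.6 and 74.8 CPM), the exporter Abcc4 (26.2, 26.0 and 46.3 CPM), the carbonyl reductase Cbr3 (15.7, 16.2 and 26.8 CPM), Osgin1 (14.4, 13.8 and 22.9 CPM) and the haem transporter Slc48a1 (85.4, 81.9 and 123.3 CPM). On the other side, the epoxide hydrolase Ephx1 (181.1, 177.2 and 137.2 CPM) and Ugdh (185.3, 187.2 and 172.2 CPM) were lowest in replicate 3. Abcc1, the exporter of glutathione conjugates, was the most abundant of the list at 276 ± 22.2 CPM.

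Of 78 further pathway genes, outside both the members and that list, 77 had a line in the files and 60 were detected. Over all gene lines the share detected was 46.6%, and nothing is read from the counts detected in the single lists below. In replicate 3, 25 of these (41.7%) were highest, against 46.0% of detected genes. A ratio of at least 1.5 was reached by 7 (11.7%, against 16.6%), and all 7 were lowest in replicate 3, against 9.76% of detected genes that met both conditions. They were Bach2, Trim21, Txnip, Gstk1, Idh1, Slc40a1 and Lpcat3, of which Bach2, Trim21 and Gstk1 lie below the abundance limit for naming and were named after their values were seen. In the NRF2 network, 6 of 8 were detected, led by Sqstm1 (502.4, 493.4 and 386.7 CPM), whose product p62 binds KEAP1, and by the KEAP1 ligase partners Cul3 (155 ± 3.54 CPM) and Rbx1 (91.4 ± 1.36 CPM). All 13 other thioredoxin and glutaredoxin genes were detected, led by Txndc5 (408 ± 50.5), Txnl1 (165 ± 2.50) and Txndc17 (80.8 ± 1.90). The thioredoxin inhibitor Txnip was far lower in replicate 3 (66.7, 70.9 and 12.01 CPM). Of 19 other glutathione genes found, 10 were detected, led by Gstz1 (33.8 ± 0.637), Gstcd (27.6 ± 2.72) and Chac1 (20.2 ± 3.42).

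A further list held other NADPH makers together with pentose phosphate and folate enzymes that form no NADPH themselves. Of its 14 genes, 13 were detected, led by Mthfd1 (178 ± 37.0 CPM) and Idh2 (174 ± 16.3 CPM). The cytosolic isocitrate dehydrogenase Idh1 stood at 154.6, 153.1 and 63.5 CPM. All 7 genes listed under selenoprotein synthesis, the process that makes the products of Gpx1, Gpx4, Txnrd1 and Txnrd2, were detected. None had a ratio of 1.5, against 16.6% of all detected genes that did, and nothing is read from so short a list. Sephs1 (78.7 ± 4.05), Sephs2 (51.2 ± 0.627) and Eefsec (20.98 ± 2.87) led them. Of 9 genes for enzymes that make superoxide or peroxide, or for their subunits, 4 were detected: Ero1l (110 ± 11.5), Xdh (14.5 ± 2.88), Nox4 (13.4 ± 0.840) and the oxidase subunit Cyba. All 8 genes of lipid peroxide and iron handling were detected, led by Tfrc (346 ± 55.9), Acsl4 (326 ± 20.02) and Slc3a2 (176 ± 24.3), with Lpcat3 at 84.3, 78.7 and 50.8 CPM. The iron exporter Slc40a1, chosen after its values were seen, stood at 11.4, 11.7 and 1.32 CPM.

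Promoter letters were then read for the members, as a description and not as a test. RefSeq windows (GRCm38.p6) run from 250 bases before to 50 after a transcription start, and 48 of the 55 members had an entry; Gclc, Gsr, Gsta4, Gstt2, Hmox1, Prdx6 and Sod3 were not matched. The core of the antioxidant response element, TGACNNNGC on either strand, occurred in 14 of 48 members (29.2%), against 14.0% of 27025 genes with an entry. The AP-1 site TGACTCA, also on both strands, occurred in 6 (12.5%), against 5.95%. A joint form that holds both an AP-1 site and the element's end, TGACTCAGC or TGAGTCAGC, was added after the letters were seen and occurred in 4 members (Srxn1, Prdx1, Me1 and Gstp1, 8.33%), against 0.929%. The TGACTCAGC form also counts as an element core. Among 8757 detected genes with an entry, 17.2% had an element core. The share was 17.3% of those with a ratio of at least 1.5 and highest in replicate 3, and 17.6% of those lowest there. The members were listed by their part in the NRF2 and related systems, and replicate 3 helped to choose them. Nothing is therefore read from the shares of the members. The following stretches are shown because they carry such letters before the start of genes described above. They are written 5′ to 3′ on the gene's strand, and capitals mark the match, which reads as its complement where the element lies on the other strand.

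Srxn1 (chr2:152105454-152105512, plus strand, match from position -45; joint form): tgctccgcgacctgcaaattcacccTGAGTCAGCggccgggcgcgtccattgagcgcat
Prdx1 (chr4:116685441-116685499, plus strand, match from position -133; joint form and element core, other strand): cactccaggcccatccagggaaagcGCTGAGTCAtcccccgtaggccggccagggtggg
Txnrd1 (chr10:82859089-82859147, plus strand, match from position -92; element core, other strand, before an internal start): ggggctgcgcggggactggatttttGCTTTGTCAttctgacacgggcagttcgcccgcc
Gclm (chr3:122245398-122245456, plus strand, match from position -134; element core, other strand): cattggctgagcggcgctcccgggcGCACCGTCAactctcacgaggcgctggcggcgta
Mafg (chr11:120633736-120633794, minus strand, match from position -222; element core, other strand): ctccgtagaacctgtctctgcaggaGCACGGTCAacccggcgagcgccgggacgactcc
Sod1 (chr16:90220681-90220739, plus strand, match from position -56; element core, other strand): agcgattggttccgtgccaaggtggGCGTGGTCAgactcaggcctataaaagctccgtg
Nfe2l2 (chr2:75704870-75704913, minus strand, match from position -240; element core): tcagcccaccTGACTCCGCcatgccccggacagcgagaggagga

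The 14 members with an element core were G6pdx, Gclm, Gsta3, Gstm5, Mafg, Mafk, Me1, Mgst1, Nfe2l2, Pgd, Prdx1, Sod1, Srxn1 and Txnrd1. In Srxn1 the core lies at position 29 after the start. Nqo1 had no match in its window, which says only that these letters are absent there. A match is a description of letters and not a bound site.

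Some members share exon bases or sequence with neighbours or copies. At least 10% of the exon bases of 9 members lie under another gene, and whether the counts used strand is not given in the sources used here. In addition, at least 10% of the 50-base stretches of 8 members recur in other genes; 39 members had neither.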

How the data were processed

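For each library the authors deposited whole-number counts by gene symbol, not normalized; 5 summary lines for reads outside genes were left out of library sizes. Tools and build, per the submitters' processing notes, were Bowtie2 2.2.4, HTSeq and mm10. Their roles, options, strand setting and annotation are not given in the sources used here. All 3 libraries form 1 group, so no test between groups was possible.

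CPM was computed over counts on genes, and detection required at least 1 CPM in every library. Levels compared between genes were divided by union exon length in kb, from GENCODE M21 (GRCm38), with a pseudocount of 1; pair ratios used 0.5 counts. In all, 23350 symbols matched directly, 669 by a RefSeq synonym, and 400 stayed unmatched; the listed symbol Opla had no line and may be misspelled. Limits for a count of 0 use 3 counts. The pattern between libraries is described by the highest-to-lowest ratio, with a limit of 1.5. Members, lists and pairs were chosen with earlier results of these data known. Named were all members, the 3 most abundant genes of each related list, and related genes with a ratio of at least 1.5 and a mean of at least 10 CPM. TMM (edgeR 4.0.16) and DESeq2 1.42.0 size factors under R 4.3.3 were alternatives for scaling. Python 3.11.15, numpy 2.4.6, pandas 2.3.3, scipy 1.17.1 and matplotlib 3.10.9 were used. The steps for ratios between libraries were tried on simulated counts with planted changes and otherwise only counting (Poisson) error. The real libraries differ by more than counting error, so this checks the steps and not the spread.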

Additional observations from a re-analysis of the deposited data

How the results depend on the processing

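The number of members detected was 49 under each alternative tried (thresholds of 0.5 and 2 CPM, TMM and DESeq2 scaling, each library left out, replicates 1 and 2 averaged). The count highest in replicate 3 was 28 as reported and 28 to 31 otherwise. Members with a ratio of at least 1.5 numbered 12, 12 with TMM, 13 with DESeq2 size factors, 15 with no filter on low counts, and 0 to 11 with 1 library left out, the 0 being without replicate 3. The median level of the members moved from 4.92 to 5.305 with the longest transcript and to 6.166 without length, and lay between 4.851 and 4.96 with 1 library left out. Pairs larger than the spread numbered 21, and 19 to 22 otherwise; 14 of 23 pairs kept direction and call under each alternative. Direction turned for Nfe2l2/Nfe2l1 (log2 ratio -0.492), Gclc/Gclm (-0.436) and Tkt/Taldo1 (0.885) without length, and for Gstm1/Gstp1 (-0.06) with the longest transcript; these follow from the lengths used. Without length, 13 pairs moved by over 1.5 times. Of all 92 related genes listed, 73 were detected, with 76 at 0.5 CPM and 67 at 2 CPM, and members with an element core numbered 14, or 11 in the 250 bases before the start. Averaging replicates 1 and 2, leaving out 1 library for the count highest in replicate 3, the shorter window and the joint motif were chosen after seeing the data. No paired analysis was possible because the labels give 1 group. Depth limits the members below 1 CPM.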
